A study of Cricetulus griseus with 19 samples.

Results

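Gnaq and Gna11 encode 2 of the alpha subunits of the Gq class of heterotrimeric G proteins. They were chosen by their CPM in these libraries. The rule took the transcript targets whose RefSeq accession maps to Chinese hamster Gnaq or Gna11. It named levels near 0 in cultures of uncontrolled growth and higher levels in cultures under feedback. In uncontrolled cultures Gnaq was at 0 to 0.423 CPM, while Gna11, at 3.03 to 3.80 CPM, was low rather than near 0. Negative feedback cultures 1 and 2 were not clearly higher for either gene. Each gene matched 1 target, so the pair makes up 2 of 46718 targets and 2 of the 334 protein-coding targets that carry a gene symbol. The levels in uncontrolled and feedback cultures therefore chose the pair, and feedback is set against uncontrolled growth below as a description with no test.

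The Gq class passes signals from receptors with 7 membrane spans to phospholipase C beta. That enzyme splits a membrane lipid into inositol trisphosphate, which releases calcium from the endoplasmic reticulum, and diacylglycerol, which activates protein kinase C. Gnaq and Gna11 encode closely related proteins that are expressed in most cell types and couple to largely the same receptors and effectors, while some other alpha classes act on adenylate cyclase.

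The 19 libraries hold polyadenylated RNA of the Paradaux line after long-term culture. Paradaux is a CHO-K1 line, from Chinese hamster ovary, with a synthetic circuit through which the cells sense and limit their own number. There was 1 parental library, and there were 4 cultures of uncontrolled growth, 7 under negative feedback and 7 under paradoxical feedback, in which 1 signal acts both for and against growth. All groups share the same labelled line and the same harvest, after 2 days below 80% confluence. The labels name no agent, dose, clone or length of culture, and do not say whether numbered cultures were kept apart throughout. A p-value here reflects only how far these libraries scatter, and that scatter may be technical.

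Depth was 9.91 to 13.2 M estimated counts per library. Negative feedback cultures 3 to 7 stood apart from cultures 1 and 2. The share of counts on targets shorter than 800 nt was 6.12 to 7.22% in the former and 14.1 and 13.3% in the latter, while it was 12.2 to 13.4% in uncontrolled cultures, 8.50 to 12.4% under paradoxical feedback and 11.8% in the parental library. Gapdh was at 5756 to 11187 CPM in these libraries, while the targets of St6gal1 and Mgat3, glycosyltransferases known to be silent in CHO lines, stayed at or below 0.0802 and 0.254 CPM. The Actb target, beta-actin, lay between 0 and 1.28 CPM although actin is abundant in cultured cells. The value of 1 accession therefore need not be that of the whole gene, also for Gnaq and Gna11.

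The targets of Gnaq and Gna11 have the same length, 1080 nt, and the same effective length, 781 nt. The 1080 nt equal 359 codons and a stop codon, which is the length of a record of coding sequence alone. Because the lengths are equal, counts on both targets can be compared without a correction for length. Either target may still miss reads of its gene, so the comparison is of targets and not of whole genes. Both had whole estimated counts in 17 of 19 libraries. In negative feedback culture 6 the counts were 220.3 for Gnaq and 482.7 for Gna11, which add up to 703. In paradoxical feedback culture 3 they were 29.1 and 306.9, which add up to 336. The counts of the pair added up to whole numbers, within 0.01, in all 19 libraries.

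Gnaq was close to the detection limit in uncontrolled cultures. Levels here are CPM, the counts of a target per 1 M counts of the library after TMM scaling, and counting intervals cover counting error only. Gnaq stood at 0.411, 0, 0.237 and 0.423 CPM in uncontrolled cultures 1 to 4, which are 5, 0, 3 and 5 reads. A count of 0 is taken to allow up to 3 reads, or 0.284 CPM in culture 2. The 95% exact Poisson interval of that culture reaches 0.350 CPM. In the parental library Gnaq had 14 reads and 1.18 CPM, with a 95% exact Poisson interval of 0.643 to 1.97 CPM. Negative feedback cultures 1 and 2 had 0.179 and 0.195 CPM, from 2 reads each, and cultures 3 to 7 had 18.6, 23.1, 26.4, 20.4 and 11.1 CPM. The former lay within the range of uncontrolled cultures and the latter above every other library.

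Under paradoxical feedback Gnaq ran from 0.392 CPM in culture 5, through a median of 2.49 CPM, to 3.63 CPM in culture 4. Of these cultures, 6 of 7 lay above every uncontrolled culture, and culture 5, with 4 reads, lay within their range. Of the negative feedback cultures 5 of 7 lay above. The uncontrolled mean was 0.268 ± 0.198 CPM (SD, n = 4). Negative feedback had a mean of 14.3 ± 10.7 CPM (SD, n = 7), and paradoxical feedback one of 2.03 ± 1.16 CPM (SD, n = 7). The ratio of means to the uncontrolled group was 53.4 for negative and 7.57 for paradoxical feedback, against a mean of 3.25 reads. The negative feedback mean joins cultures that fall into separate sets.

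The Gna11 target had more counts than the Gnaq target in all 19 libraries. It stood at 3.54, 3.03, 3.40 and 3.80 CPM in uncontrolled cultures 1 to 4, a narrow range of 32 to 45 reads. The parental library had 71 reads and 5.96 CPM (95% exact Poisson interval 4.65 to 7.52 CPM), above every uncontrolled culture, though this interval and that of uncontrolled culture 4 (2.77 to 5.09 CPM) overlap. Under negative feedback, cultures 1 and 2 had 2.59 and 4.18 CPM of Gna11, and cultures 3 to 7 had 37.5, 43.7, 40.0, 44.8 and 39.0 CPM. The low pair lay just below and just above the uncontrolled range.

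Under paradoxical feedback Gna11 ran from 11.6 CPM in culture 5, through a median of 17.5 CPM, to 27.8 CPM in culture 3. All 7 of these cultures lay above every uncontrolled culture and above the parental library, and below negative feedback cultures 3 to 7. The uncontrolled mean was 3.44 ± 0.321 CPM (SD, n = 4). The mean of 30.2 ± 18.5 CPM (SD, n = 7) under negative feedback was 8.78 times as high, and that of 19.1 ± 5.08 CPM (SD, n = 7) under paradoxical feedback 5.53 times. Of the negative feedback cultures 6 of 7 were above every uncontrolled culture, among them culture 2 by a small margin that its counting interval of 3.03 to 5.64 CPM covers. Bulk libraries cannot tell whether fewer cells carried a transcript or each cell carried less of it.

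**Figure D1:**
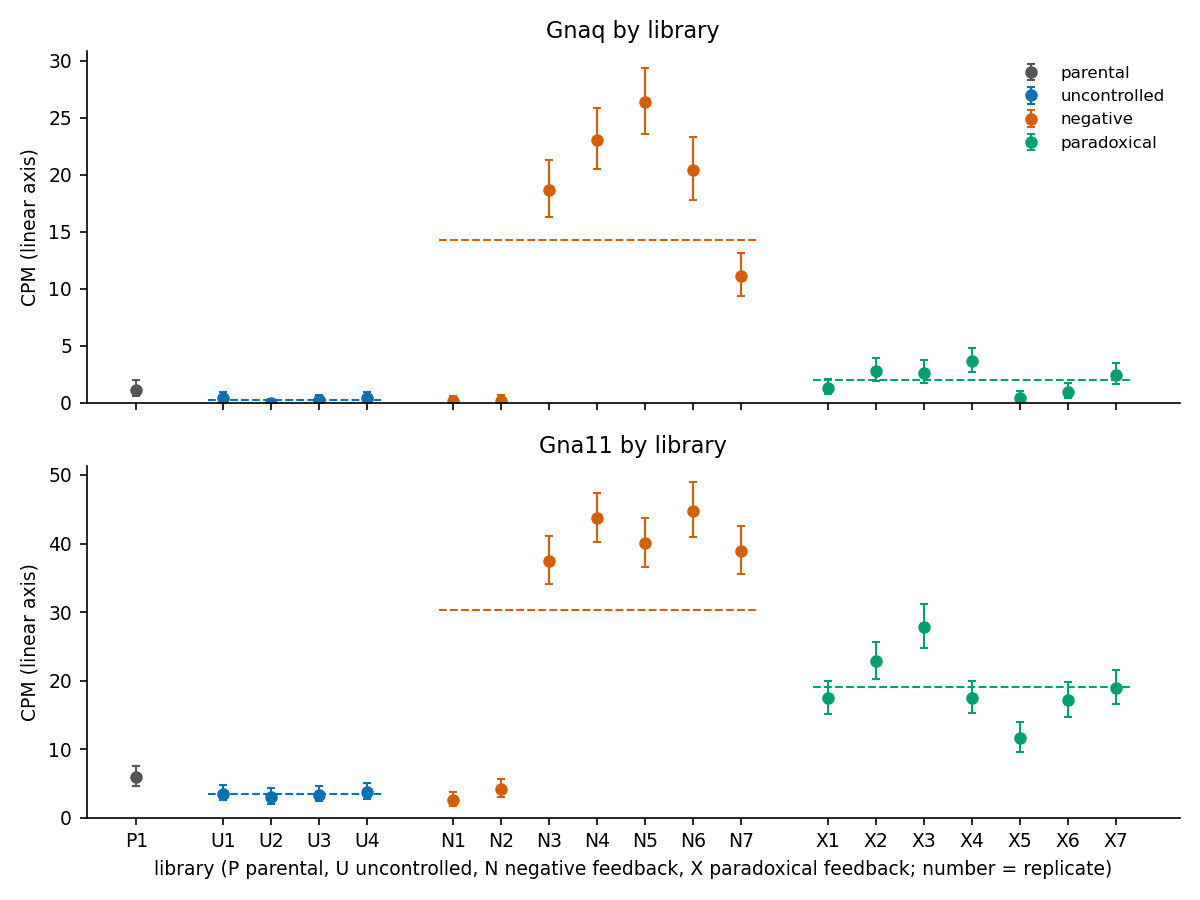
Level of Gnaq (top) and Gna11 (bottom) in each of the 19 libraries, in CPM on a linear axis that starts at 0; bars are 95% exact Poisson counting intervals and dashed lines are group means. Negative feedback cultures 3 to 7 are the highest libraries for both genes (11.1 to 26.4 and 37.5 to 44.8 CPM), and cultures 1 and 2 lie with the uncontrolled cultures.

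Within the paradoxical group both genes were lowest in culture 5, while Gnaq was highest in culture 4 and Gna11 in culture 3. The highest culture exceeded the lowest by 9.27 times for Gnaq and by 2.39 times for Gna11, with coefficients of variation of 57.3% and 26.6%. Within negative feedback cultures 3 to 7 the highest exceeded the lowest by 2.37 times for Gnaq and by 1.20 times for Gna11. Culture 7 had the lowest Gnaq of these 5, at 11.1 CPM, but a Gna11 level, 39.0 CPM, between those of cultures 3 and 5. In order of group medians, Gnaq went from uncontrolled cultures through the parental library and paradoxical feedback to negative feedback, and so did Gna11. For Gnaq the parental value lay within the paradoxical range, and paradoxical feedback culture 5 within the uncontrolled range, so these groups are not separated. For Gna11 only the negative group, which spans 2.59 to 44.8 CPM, overlapped the others.

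In the deposited TPM, which corrects for effective length, the same sets of cultures were high and low. Gnaq was at 0 to 0.602 TPM in uncontrolled cultures, 1.62 TPM in the parental library, 0.445 to 5.62 TPM under paradoxical feedback, 0.217 and 0.255 TPM in negative feedback cultures 1 and 2, and 18.7 to 46.7 TPM in cultures 3 to 7. Gna11 was at 3.91 to 5.41 TPM in uncontrolled cultures, 8.22 TPM in the parental library and 13.2 to 37.1 TPM under paradoxical feedback. It was at 3.14 and 5.49 TPM in negative feedback cultures 1 and 2 and at 65.6 to 82.3 TPM in cultures 3 to 7.

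The comparison of paradoxical with negative feedback asked whether Gnaq and Gna11 differed between both kinds of control. The rule that chose the pair did not set these groups against each other, but it used the levels in both. The p-values of this contrast are therefore not independent of the choice. Neither gene passed the test over all targets. By edgeR's quasi-likelihood test Gnaq had a log2 fold change of -2.81 ± 0.92 (paradoxical minus negative, ± SE) with a Benjamini-Hochberg adjusted p of 0.135. Gna11 had -0.67 ± 0.48 with an adjusted p of 0.553 by the same test. Over all 28555 tested targets 0.27% were called in this contrast, 0.165% as higher and 0.105% as lower. At an unadjusted p under 0.05 edgeR had 1 of the 2 genes, Gnaq, and 5033 of all 28555 targets. DESeq2 called Gnaq, at -2.88 with an adjusted p of 0.0133, among 1794 targets it called. By limma-voom 297 targets were called, and neither gene. These misses do not show equal levels, since the negative group holds cultures on both sides of the paradoxical range. For Gnaq the low side is not resolved, with 2 reads in each of negative feedback cultures 1 and 2 and 4 reads in paradoxical feedback culture 5.

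Exact two-sided permutation of 7 against 7 cultures called neither gene, as edgeR did. The mean log2(CPM + 0.5) of Gnaq was lower by 1.74 under paradoxical feedback (exact p = 0.0897, 0.179 after adjustment over 4 tests). The unadjusted exact p of Gnaq was 0.0192 without negative feedback culture 1 and likewise without culture 2. For Gna11 the difference, paradoxical minus negative, was -0.14 (exact p = 0.829, adjusted 0.829), a sign that turned without any 1 of negative feedback cultures 3 to 7 (0.0038 to 0.046). For the summed CPM of both genes it was -0.42 (exact p = 0.570, adjusted 0.760). Without negative feedback cultures 3 to 7 each difference changed sign, with edgeR log2 fold changes of 3.38 ± 1.26 for Gnaq (adjusted p = 0.124) and 2.50 ± 0.38 for Gna11 (adjusted p = 0.00310). Without cultures 1 and 2 they were -3.28 ± 0.59 (adjusted p = 0.00132) and -1.10 ± 0.17 (adjusted p = 0.000590), all by edgeR. These sets of cultures were told apart in these same data, so the values show what the comparison rests on and are no test of the conditions. Leaving out negative feedback culture 1 alone gave Gnaq -3.03 with an edgeR adjusted p of 0.0472.

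**Figure D2:**
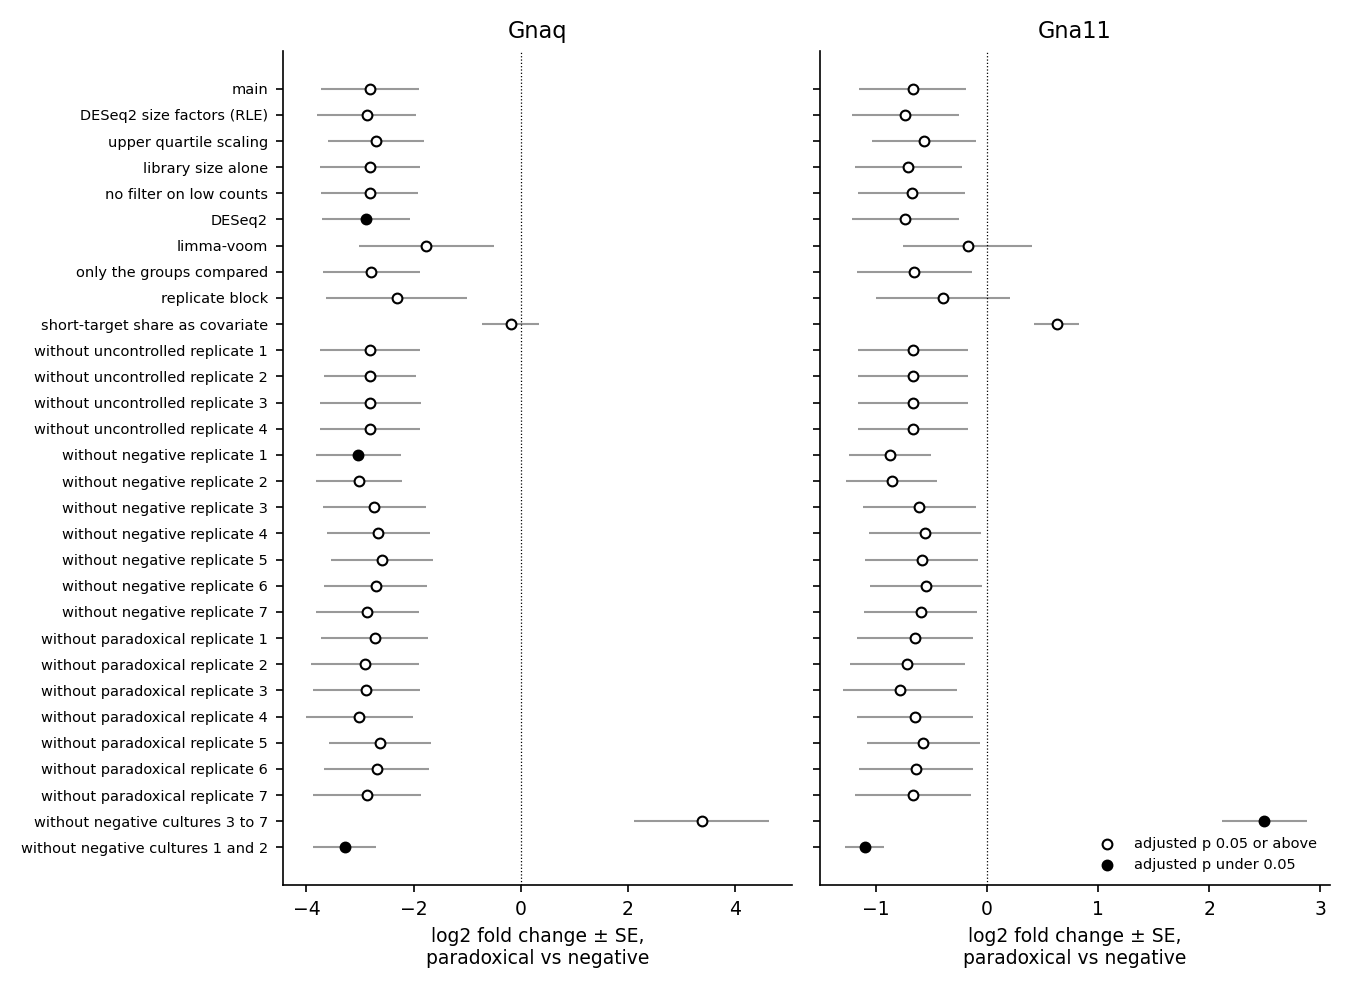
Log2 fold change (x axis, ± SE) of Gnaq (left) and Gna11 (right) between paradoxical and negative feedback under each setting (y axis). For edgeR settings the SE was derived from the F statistic of the test. Filled points have an adjusted p under 0.05. The direction turns positive for both genes without negative feedback cultures 3 to 7 (3.38 and 2.50), and for Gna11 also with the short-target share as a covariate (0.63).

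The balance between the counts of both targets also varied. Gnaq made up 33.2, 34.6, 39.7, 31.3 and 22.2% of the summed Gnaq and Gna11 counts in negative feedback cultures 3 to 7, and 6.45 and 4.44% in cultures 1 and 2. It made up 3.25 to 17.2% under paradoxical feedback (median 8.66%), 0 to 10.4% in uncontrolled cultures and 16.5% in the parental library. The exact 95% binomial intervals of negative feedback cultures 3 to 6 (29.7 to 37.0%, 31.4 to 37.8%, 36.3 to 43.2% and 27.9 to 34.9%) lay above that of the highest paradoxical culture, culture 4 (12.9 to 22.1%). The interval of negative feedback culture 7, 19.1 to 25.6%, overlapped it. The comparison of this share between both kinds of feedback was chosen after the values had been seen. It was lower by 15.5 percentage points on average under paradoxical feedback, at 9.10 ± 4.62% (SD, n = 7) against 24.6 ± 14.1% (SD, n = 7). The exact two-sided permutation p was 0.0239, which became 0.0956 over the 4 tests and did not pass. Without negative feedback cultures 3 to 7 the difference was 3.66 percentage points in the other direction (exact p = 0.361).

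**Figure D3:**
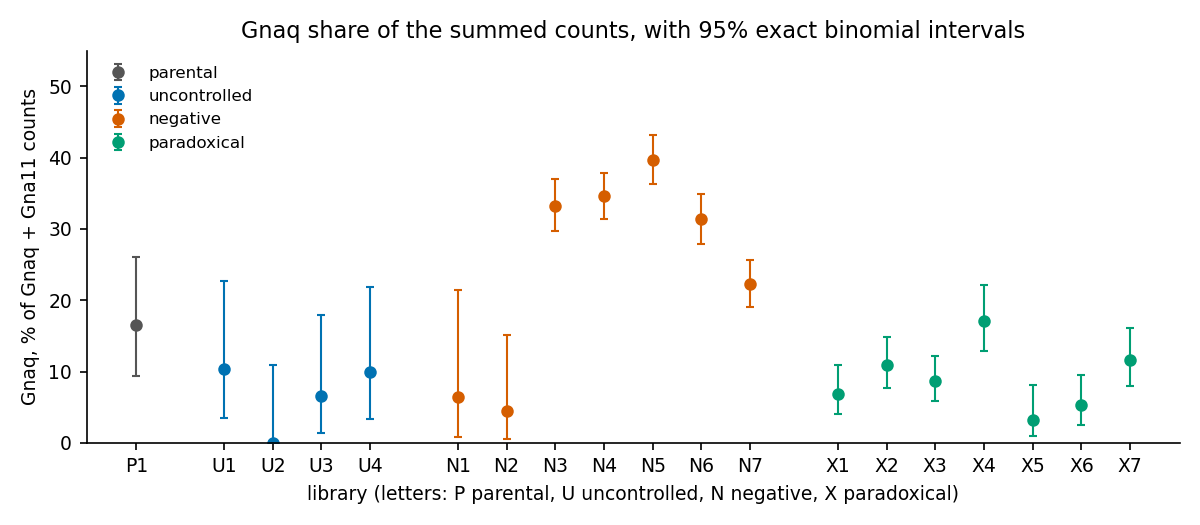
Gnaq as a percentage of the summed Gnaq and Gna11 counts (y axis, from 0) in each library (x axis), with 95% exact binomial intervals. Negative feedback cultures 3 to 7 lie at 22.2 to 39.7% and all other libraries at 0 to 17.2%.

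Both genes moved with the share of counts on targets under 800 nt, a set that holds neither of them. Libraries with 6.12 to 7.22% on such targets had the highest levels and those with 12.2% or more the lowest, with the exception of Gna11 in paradoxical feedback culture 5, which was at 11.6 CPM with a share of 12.4%. Because the libraries form separate sets, the relation was computed only within the 7 paradoxical cultures, after the values had been seen. There, log2(CPM + 0.5) of Gnaq had a Pearson r of -0.88 with the short-target share (exact permutation p = 0.0103, 0.0619 adjusted over 6 values) and a Spearman coefficient of -0.68 (exact p = 0.110, adjusted 0.110). For Gna11 r was -0.75 (exact p = 0.0482, adjusted 0.0795) and the Spearman coefficient -0.86 (exact p = 0.0238, adjusted 0.0714). Between Gnaq and Gna11, r was 0.75 (exact p = 0.0536, adjusted 0.0795) and the Spearman coefficient 0.75 (exact p = 0.0663, adjusted 0.0795). Leaving out cultures 5 and 6, the farthest from the median, brought r to -0.31, -0.24 and 0.23, so these relations rest on those cultures, and none of them passed after adjustment. With the short-target share as a covariate over all libraries, the edgeR log2 fold change of paradoxical against negative feedback was -0.19 ± 0.53 for Gnaq (adjusted p = 0.922) and 0.63 ± 0.20 for Gna11 (adjusted p = 0.107). Against uncontrolled cultures, where the choice of the pair used the contrast, the covariate took the fitted log2 fold change of Gnaq from 5.67 to 0.47 under negative and from 2.86 to 0.28 under paradoxical feedback, and that of Gna11 from 3.13 to 0.55 and from 2.46 to 1.18. The short-target share moves with the groups, so its part in these differences and that of the culture condition cannot be told apart.

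**Figure D4:**
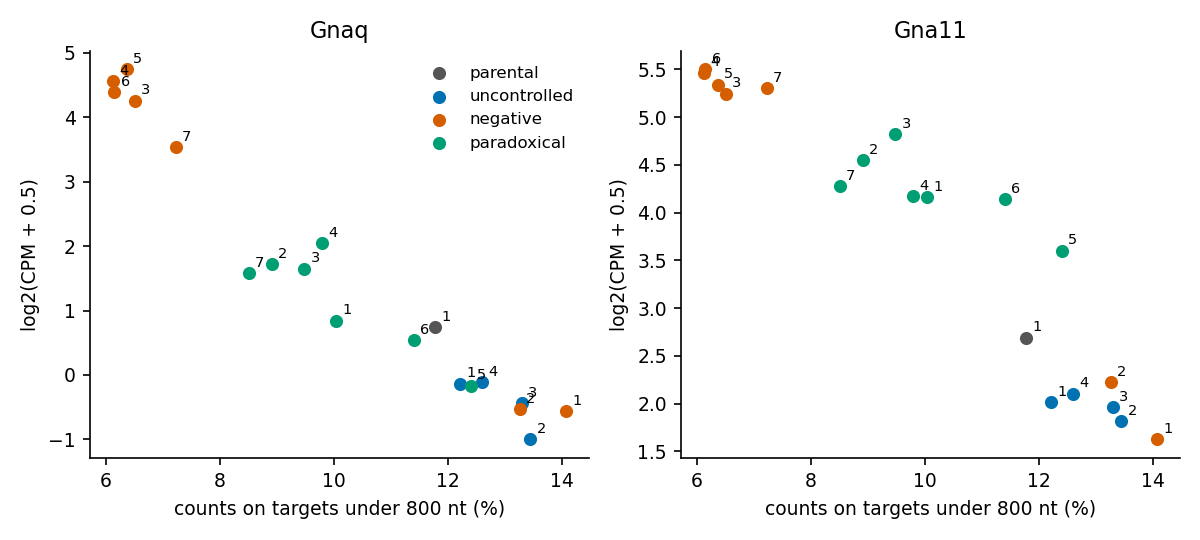
Log2(CPM + 0.5) of Gnaq (left) and Gna11 (right) against the percentage of counts on targets under 800 nt, 1 point per library, coloured by group and numbered by replicate. Negative feedback cultures 3 to 7 sit at the upper left (6.12 to 7.22%), and cultures 1 and 2 sit with the uncontrolled cultures at the lower right (12.2 to 14.1%).

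The other genes of the pathway were looked up from 6 lists with 124 symbols, of which 10 matched a target and 9 were tested. Of 13 other alpha subunits 6 were tested, with no match for Gna14 or Gna15, and of 13 beta and gamma subunits 1. No gene of the 30 effectors and second messengers or of the 13 regulators matched a target. Of 37 receptors the serotonin receptor Htr2a was the only match and had 0 reads in all 19 libraries, where 3 reads would be 0.232 to 0.294 CPM. Phospholipase C beta and the calcium branch were therefore not analysed here.

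Against uncontrolled cultures, 3 of the 9 genes rose under negative feedback and 0 fell by edgeR, where 9.76% of all targets were called, 8.65% as higher and 1.11% as lower. Rises were more common among named protein-coding targets, the kind these genes are, with 78 higher and 1 lower of 282. Gna13, an alpha subunit of another class, rose from 2.03 ± 0.367 CPM (SD, n = 4) to 12.4 ± 7.66 CPM (SD, n = 7). Its log2 fold change was 2.61 ± 0.63 (adjusted p = 0.0241 by edgeR). Gnai1, an inhibitor of adenylate cyclase, rose by 2.19 ± 0.66 (adjusted p = 0.0454). Map2k1, the kinase above ERK, rose by 1.13 ± 0.32 with reads shared among similar targets (adjusted p = 0.0351). All 3 rises lay in cultures 3 to 7. Gna13 had 1.52 and 2.24 CPM in cultures 1 and 2 and 11.5 to 19.7 CPM in the others. Gnai1 had 1.43 to 1.85 CPM in that pair and at least 9.25 CPM in the others. When cultures 3 to 7 were left out, Gna13 was at -0.11, Gnai1 at -0.034 and Map2k1 at -0.19. None of the 3 was called when any 1 uncontrolled culture was left out, with adjusted p of 0.0539 to 0.119 by edgeR, and Gnai1 and Map2k1 were also lost without any 1 of negative feedback cultures 3 to 7 (0.0637 to 0.0813). All 3 were lost with only the groups compared (0.0798 to 0.0904) and with the replicate block (0.205 to 0.220). Gnai1 was lost as well with upper quartile scaling (0.0575), library size alone (0.0586), no filter (0.0572) and without paradoxical feedback culture 1, 3, 5, 6 or 7 (up to 0.0556). Of 29 alternatives, Gna13 was called in 20, Map2k1 in 15 and Gnai1 in 7. DESeq2, which called 6436 of all 28555 targets, called Gnao1 and Gnai2 as well. By limma-voom, with 5039 of all targets called, Gnas alone was called, as lower. With the short-target share as a covariate edgeR called 0 of the 9, at 0.35 for Gna13, 0.26 for Gnai1 and 0.12 for Map2k1.

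The remaining alpha subunits did not pass the test. Gnai2, the most abundant inhibitory subunit in these libraries, was at 36.6 to 110 CPM in uncontrolled cultures, 71.9 and 75.2 CPM in negative feedback cultures 1 and 2 and 187 to 240 CPM in cultures 3 to 7 (log2 fold change 1.15 ± 0.38, adjusted p = 0.0612 by edgeR). Gnao1, a subunit best known from neurons, was at 0.663 to 1.89, 0.803 and 1.07, and 5.80 to 8.10 CPM in the same sets (1.95 ± 0.65, adjusted p = 0.0647). Gnai3 had no reads in any uncontrolled, parental or paradoxical library, nor in negative feedback cultures 1, 2 and 7, and up to 7.99 CPM in cultures 3 to 6. It has reads shared with similar targets and missed the threshold (adjusted p = 0.0921). Gnas, the subunit that stimulates adenylate cyclase, was at 3039 to 3640 CPM in uncontrolled cultures and 1229 to 1584 CPM in negative feedback cultures 3 to 7 (log2 fold change -0.72 ± 0.29, adjusted p = 0.107). Its target of 1660 nt has a length that is not divisible by 3, while those of the 5 other alpha subunits, at 1065 to 1134 nt, are divisible by 3 like those of Gnaq and Gna11. The median log2 fold change of the 6 other alpha subunits was 2.07, also with Gnai3 at its lower bound, against 0.04 over all targets. It was 1.69 over 25 named protein-coding targets of 1000 to 1200 nt with a length divisible by 3, other than Gnaq and Gna11. That set, chosen by length after the values had been seen, holds those 5 subunits too.

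Under paradoxical feedback 1 of the 9 genes rose and 0 fell against uncontrolled cultures by edgeR, where 6.43% of all targets were called, 4.93% as higher and 1.5% as lower. Among the 282 named protein-coding targets, 55 were called as higher and 3 as lower. Map2k1 went from 52.1 ± 9.36 CPM (SD, n = 4) to 122 ± 24.9 CPM (SD, n = 7). Its log2 fold change was 1.22 ± 0.32 (adjusted p = 0.0329 by edgeR). Its call was lost without any 1 uncontrolled culture or without paradoxical feedback culture 3 or 6 (adjusted p from 0.0535 to 0.106), with scaling by library size alone (adjusted p = 0.0503) and with the replicate block (adjusted p = 0.193). With the short-target share as a covariate it was at 0.67 (adjusted p = 0.0572). DESeq2, which called 4823 of all 28555 targets, called Gnai2 and Gnb1 as higher too and Fos as lower. Gnai2 had 1.14 ± 0.38 (adjusted p = 0.0751), Gnai1 1.20 ± 0.63 (0.234), Gna13 0.96 ± 0.58 (0.306), Gnao1 0.74 ± 0.62 (0.489) and Gnas -0.59 ± 0.29 (0.206). The beta subunit Gnb1 had 0.72 ± 0.28 (adjusted p = 0.123) and the immediate early gene Fos -0.05 ± 1.12 (adjusted p = 1). Fos was at 2.10 ± 0.515 CPM (SD, n = 4) in uncontrolled cultures and 2.03 ± 4.22 CPM (SD, n = 7) under paradoxical feedback. The latter mean includes 11.6 CPM in culture 4, far above the other cultures, so the Fos value depends on that library. The median over the alpha subunits was 0.96 without Gnai3, which had no reads in either group, against 0.02 over all targets. The 25 named targets of 1000 to 1200 nt, which include most of these subunits, had a median of 0.84. Both of these comparisons share the 4 uncontrolled cultures.

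Between paradoxical and negative feedback none of the 9 genes was called by edgeR. At an unadjusted p under 0.05 edgeR had 4 of the 9, and 5033 of all 28555 targets. DESeq2, which called 1794 of all targets, called Gnb1 as higher and Gna13 as lower, and limma-voom called none of the 9. The median over the 6 other alpha subunits was -1.10 (paradoxical minus negative), against -0.06 over all targets. It was -0.11 over the 25 named targets of 1000 to 1200 nt, which include most of these subunits. Among the subunits Gna13 had -1.65 ± 0.48 (edgeR adjusted p = 0.110) and Gnai2 -0.0031 ± 0.31 (adjusted p = 1).

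**Figure D5:**
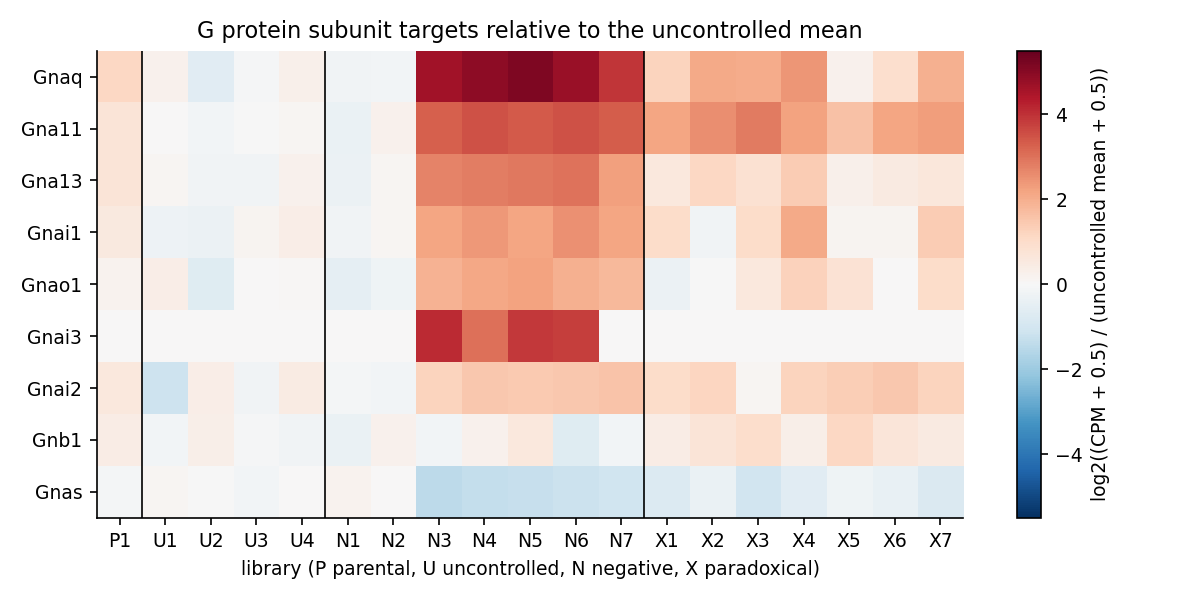
Level of each G protein subunit target (rows) in each library (columns) as log2 of CPM + 0.5 relative to the uncontrolled mean, red for higher and blue for lower. Gnaq, Gna11, Gna13, Gnai1 and Gnao1 are highest in negative feedback cultures 3 to 7 and Gnas is lowest there, while Gnai2 reaches 240 CPM under negative and 226 CPM under paradoxical feedback, and Gnai3 has no reads in culture 7.

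The named targets most like each gene were taken by Pearson correlation of log2(CPM + 0.5) over the 19 libraries, among 263 others with a symbol and a mean of at least 1 CPM. The values are descriptive, since all points share the libraries that stand apart. For Gnaq these were Xpr1, a phosphate exporter (r = 0.99), Gna13 (0.99), Pld1, phospholipase D (0.98), Edem1, which directs misfolded glycoproteins to degradation (0.98), and Glg1, a Golgi glycoprotein (0.98). Xpr1 had 0.474 to 1.78 CPM in uncontrolled cultures, 1.07 to 1.17 CPM in the low negative feedback pair, 20.1 to 33.6 CPM in cultures 3 to 7 and 1.66 to 8.19 CPM under paradoxical feedback. Within the 7 paradoxical cultures alone, r with Gnaq was 0.97 for Xpr1, Edem1 and Glg1, 0.88 for Gna13 and 0.86 for Pld1.

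For Gna11 the targets most alike included Adss2, an enzyme of AMP synthesis (r = 0.98), Dicer1, which processes microRNA precursors (0.98), Scarb1, the receptor for high-density lipoprotein (0.98), and Mgat1, an enzyme of N-glycan synthesis (0.97). Adss2 had 22.3 to 28.8 CPM in uncontrolled cultures, 25.8 to 26.6 CPM in the low negative feedback pair, 108 to 142 CPM in cultures 3 to 7 and 44.9 to 113 CPM under paradoxical feedback. Within the paradoxical cultures alone r with Gna11 was 0.97 for Adss2 and 0.58 to 0.80 for Dicer1, Scarb1 and Mgat1. No target was among the 5 most alike for both genes. Gnaq and Gna11 had an r of 0.90 with each other, so that Gna11 ranked 41 among the 264 targets compared with Gnaq, and Gnaq ranked 49 among those compared with Gna11.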

How the data were processed

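Per the submitters' processing notes, reads were trimmed with Trim Galore and quantified with kallisto, without versions; their genome build is not stated here. Per the file headers, each library's file gives an estimated count and a TPM value for each transcript target. The estimated counts deposited by the authors may be fractional, because reads matching several targets are divided among them. The TPM values deposited by the authors were only described. Accessions were matched to symbols, ignoring version, through RefSeq's table for CriGri-PICRH-1.0, which named 528 of 46718 targets. It was used for names only.

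Counts were rounded, filtered with filterByExpr (28555 targets left, among them Gna11 and Gnaq, the latter through the groups where it is high), and scaled by TMM. All 19 libraries entered 1 quasi-likelihood model of edgeR 4.0.16 (R 4.3.3) with a term for each group. Adjusted p-values under 0.05 over all targets were called. The SE given for an edgeR log2 fold change is its absolute value divided by the square root of the test's F statistic. DESeq2 1.42.0 and limma-voom (limma 3.58.1) were alternatives. Permutation tests were exact, on log2(CPM + 0.5) for levels and on percentages for the Gnaq share and the short-target share. The fit was tested on simulated data. The planned sum of targets to genes was not possible, since most targets carry no symbol, so each test is per target. Intervals and the 3-count floor cover counting error only. Members and lists were chosen with earlier results of these data known. The named genes are both members, the 5 named targets most correlated with each, and every tested gene of a list with up to 6 tested members. Of these, 1 target most correlated with Gna11 is not reported here.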

Additional observations from a re-analysis of the deposited data

Results flagged for a closer look

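In 34 groups of 4 to 7 cultures, the highest or lowest culture stood far from the others 3 times, by the ratio of its gap to the range, and chance gives about 1 in 20 such groups. Neither Gnaq, Gna11 nor the Gnaq share was among them. Gnb1 was at 9.57 CPM in uncontrolled culture 2, above the other 3 cultures. Map2k1 was at 175 CPM in paradoxical feedback culture 2, and Fos at 11.6 CPM in paradoxical feedback culture 4, each far above the other 6 cultures.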

How the results depend on the processing

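Scaling by DESeq2 size factors, upper quartile or library size kept the direction and side of the threshold of both genes between paradoxical and negative feedback. Their log2 fold changes ran from -3.03 to -2.59 (Gnaq) and -0.87 to -0.55 (Gna11) with 1 culture left out, and Gnaq was called by edgeR without negative feedback culture 1. DESeq2 gave Gnaq -2.88 (called). With the short-target share as a covariate Gna11 was at 0.63. Without negative feedback cultures 3 to 7 Gnaq was at 3.38 and Gna11 at 2.50 and, against uncontrolled cultures, at -0.50 and -0.021, and without cultures 1 and 2 at -3.28 and -1.10. In the exact tests on log2(CPM + pseudocount), the values without cultures 3 to 7 and without cultures 1 and 2 were 1.72 and -3.13 for Gnaq, 2.32 and -1.12 for Gna11 and 2.39 and -1.55 for the sum (each exact p = 0.0278, the smallest 7 against 2 can give, and 0.00126, the smallest 7 against 5 can give). Both sets were told apart in these same data, so these p-values are no test of the conditions. A pseudocount of 2 gave Gnaq -1.52 (exact p = 0.0355), and one of 0.1 gave it -1.71 (exact p = 0.177). With 1 culture left out, Gnaq ran from -2.32 to -1.44, Gna11 from -0.60 to 0.046, the sum from -0.94 to -0.21 and the share from -18.8 to -12.9 percentage points, and the share was 3.66 without cultures 3 to 7. Gna13, Gnai1 and Map2k1 were at -0.11, -0.034 and -0.19 there against uncontrolled cultures. The causes were not tested.

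Replicate numbers showed little sign of pairing the cultures. Same-numbered deviations from group means correlated above 0.1 in 1 of 7 pairs between both feedback groups and in 0 of 4 in each other case. Of the negative feedback cultures 1 of 7 correlated best with its own number. In that group the deviations also carry the split of cultures 1 and 2 from 3 to 7, so the check can miss a pairing. With the replicate block the targets called were 0 (paradoxical against negative), 4 (negative against uncontrolled) and 3 (paradoxical against uncontrolled), Gnaq was at -2.32, Gna11 at -0.39, and the share at -15.5 (exact p = 0.0625).

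The calls over all targets were unstable. Paradoxical against negative feedback had 77 (47 higher, 30 lower), and 11 with DESeq2 size factors (1 and 10), 226 with upper quartile (151 and 75), 42 with library size alone, 2 without a filter, 1794 by DESeq2 (478 and 1316), 297 by limma-voom, 0 with only the groups compared, 697 with the covariate, 2454 without cultures 3 to 7, 5937 without cultures 1 and 2, and 0 to 989 with 1 culture left out (304 and 685 without negative feedback culture 1, 247 and 618 without culture 2). Where edgeR called 0, it had 2920 (only the groups compared) and 3275 (block) at an unadjusted p under 0.05. Negative against uncontrolled had 2787 (2470 higher, 317 lower), and 6436 by DESeq2 (4880 and 1556), 5039 by limma-voom (1637 and 3402), 10 with only the groups compared, 6 with the covariate, 13 (4 and 9) and 11460 (5844 and 5616) without cultures 3 to 7 or 1 and 2, and 7 to 6938 with 1 left out. Paradoxical against uncontrolled had 1835 (1408 higher, 427 lower), with library size alone 905 higher and 521 lower, by limma-voom 1082 higher and 1507 lower, and 4823 by DESeq2, 4956 with only the groups compared, 1145 with the covariate, 4926 and 5675 without cultures 3 to 7 or 1 and 2, and 127 to 3204 with 1 left out. Depth limits Gnaq, which had at most 5 reads per uncontrolled culture.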

Other observations

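Among 25 other named protein-coding targets of 1000 to 1200 nt whose length is divisible by 3, a set chosen by length after the values had been seen, 7 rose and 0 fell under negative feedback against uncontrolled cultures by edgeR, and their log2 fold changes had a median of 1.69. Over 282 named protein-coding targets 78 rose and 1 fell, with a median of 0.43. Under paradoxical feedback 5 of the 25 rose and 0 fell, with a median of 0.84, against 55 and 3 of the 282 and a median of 0.55. The 25 include most of the other alpha subunits, with Gna13 and Gnai1 among those that rose under negative feedback. Both comparisons share the uncontrolled cultures.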
